A study of Mus musculus with 12 samples.

Results

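Basal cells of the mouse prostate were compared with luminal cells, as separated by cell sorting, over 8 of the 12 array libraries of the study: 4 libraries of the basal gate and 4 of the luminal gate. The libraries were taken by the gate in their labels. All cells came from wild-type, hormone-naïve male mice and were negative for CD45, CD31 and Ter119, the surface proteins of leukocytes, endothelial cells and erythroid cells. The basal gate held cells with intermediate Sca1 and positive CD49f, and the luminal gate cells with low Sca1 and low CD49f. Sorting for LY6D, another surface protein, then gave LY6D+ and LY6D- cells of each gate. Basal libraries came from mice 3 and 5 and luminal libraries from mice 4 and 5, so that only mouse 5 gave cells of both gates. The remaining 4 libraries held Sca1-high, CD49f-positive cells of mice 1 and 5 and serve here only to estimate the spread and as a reference position. Age and strain are not in the labels, and RNA was amplified before hybridization. Each library is RNA of many cells, so that fewer cells of a type and less RNA per cell cannot be told apart.

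The prostatic epithelium has an outer layer of basal cells, which rest on the basement membrane through integrins and hemidesmosomes, and an inner layer of luminal cells, which secrete the proteins of the prostatic fluid under the control of androgens. Basal cells are known for the keratins KRT5 and KRT14 and the transcription factor p63, and luminal cells for KRT8 and KRT18. Sca1 and CD49f, the alpha-6 integrin, are the surface proteins commonly used to separate the layers.

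Values are log2 signals, on which a difference of 1 is a doubling, and are listed in a fixed order: LY6D+ cells of mouse 3 (basal) or mouse 4 (luminal), LY6D+ cells of mouse 5, then LY6D- cells of the same mice in the same order. Differences are basal minus luminal, with LY6D+ and LY6D- cells weighted equally, ± SE. A gene is called when its Benjamini-Hochberg adjusted p over 20135 genes is under 0.05 with limma, and verbs of change are used of called genes only. The p-values take no account of the mouse that LY6D+ and LY6D- libraries share and rest on 2 mice a gate.

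A microRNA gene, Mir17, was among the genes that rose most in basal cells. The mature sequences of Mir17, of its cluster partners Mir18 and Mir20a, and of Mir205, a microRNA known from basal and stratified epithelia, are shown because the arrays read the gene of each and not its mature arm. Capitals mark the seed, bases 2 to 8 from the 5′ end, which sets the targets of a microRNA. The sequences and positions are those of RefSeq on GRCm38.p6: chr14:115043684-115043706, chr14:115043867-115043889 and chr14:115044183-115044205 on the plus strand, and chr1:193507503-193507524 on the minus strand.
mmu-miR-17-5p: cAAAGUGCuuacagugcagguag
mmu-miR-18a-5p: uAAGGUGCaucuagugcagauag
mmu-miR-20a-5p: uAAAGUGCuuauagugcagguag
mmu-miR-205-5p: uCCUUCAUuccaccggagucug
The 5p arms of miR-17 and miR-20a share the seed AAAGUGC, while miR-18a carries AAGGUGC and miR-205 CCUUCAU.

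The label check against the sort proteins was partial. Itga6, which encodes CD49f, read 8.22, 9.15, 7.44 and 9.05 in basal and 6.77, 7.01, 5.97 and 6.20 in luminal libraries. Every basal library lay above every luminal one, and the difference of 1.98 ± 0.46 was not called (adjusted p = 0.150, limma). Ly6d read 5.93, 5.96, 4.86 and 6.03 in basal and 4.81, 5.20, 5.11 and 4.61 in luminal libraries. The gates differed by 0.76 ± 0.50 (adjusted p = 0.760, limma). LY6D+ and LY6D- libraries overlapped in each gate, so that the Ly6d transcript did not separate the LY6D classes. Ly6a, which encodes Sca1, was not analysed here. Ptprc, which encodes CD45, read 3.25, 3.42, 3.27 and 3.76 in basal but 4.04, 6.91, 5.97 and 8.90 in luminal libraries. The luminal LY6D- library of mouse 5 was the highest of them, and the difference of -3.03 ± 0.71 was not called (adjusted p = 0.149), although it was with the mouse as a block (adjusted p = 0.0146, limma). Only mouse 5 gave both gates, so that a difference with the mouse as a block is that of mouse 5 alone, here -4.32, against -1.75 between mice 3 and 4. With the mouse as the unit, a mean for each gate and mouse that ignores the pairing in mouse 5, Ptprc was not called either (adjusted p = 0.362, limma). Pecam1, which encodes CD31, read 7.18, 5.70, 8.62 and 8.19 in basal and 4.43, 5.73, 5.53 and 5.03 in luminal libraries, with overlap.

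The keratins that define the layers were uneven. Krt14 read 11.65, 11.69, 10.19 and 11.47 in basal libraries and 9.87, 10.31, 4.98 and 6.99 in luminal libraries. The LY6D+ luminal libraries stood above the LY6D- luminal ones, and that of mouse 5 reached into the basal range. Krt15 showed the same order without overlap of the gates, at 11.44, 11.73, 9.99 and 11.40 against 9.18, 9.72, 5.89 and 6.41. Krt17 read 12.42, 12.51, 11.25 and 12.51 against 10.48, 11.18, 6.56 and 7.86. None of these keratins was called, at adjusted p = 0.0794 for Krt14, 0.109 for Krt15 and 0.0801 for Krt17 (limma). The luminal keratins did not mark the luminal gate: Krt8 read 10.06, 10.53, 8.88 and 10.91 in basal and 10.18, 10.07, 9.63 and 10.57 in luminal libraries, a difference of -0.02 ± 0.68. Krt18 differed by 0.30 ± 0.89 and the p63 gene Trp63 by 0.36 ± 0.21. Krt5 is read only by a probe set shared among several genes and was not analysed here.

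Of the 20135 genes, 84 were called, 28 higher and 56 lower in basal cells. That is 0.417% of genes in either direction, 0.139% higher and 0.278% lower. The median difference over all genes was -0.03, and 45.8% of genes lay above 0. The 4 basal libraries did not overlap the 4 luminal ones in 1157 genes (5.75%), with 519 higher (2.58%) and 638 lower (3.17%), and 81 of the 84 called genes were among them. The exceptions were Snora44, Snora33 and Xcl1. A difference of more than 1 in either direction was seen in 1457 genes and of more than 2 in 306, and the smallest difference of a called gene was 1.03 in size.

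**Figure D1:**
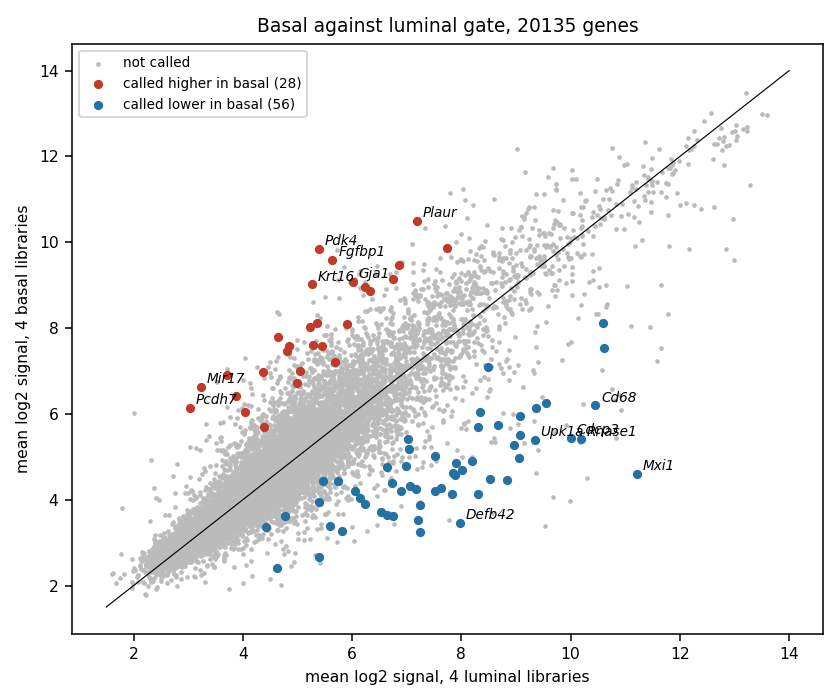
Mean log2 signal in the 4 basal libraries (vertical axis) against the mean in the 4 luminal libraries (horizontal axis), a point a gene, with the line of equal signal. The 28 genes called higher (red) and 56 called lower (blue) lie to either side, with Mxi1, at 4.61 against 11.21, farthest from the line among called genes.

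Among the genes that rose in basal cells, several join cells to each other or to the matrix. Gja1 encodes connexin 43, a gap junction channel. It read 8.91, 8.84, 9.01 and 9.51 in basal and 6.41, 6.37, 5.76 and 5.53 in luminal libraries. The groups were more than 2 units apart, and the difference was 3.05 ± 0.30 (adjusted p = 0.00672, limma). Gja1 was the only call among 12 connexin and pannexin genes, of which 5 lay above 0, with a median of -0.06. The connexin gene Gjb2 lay lower in basal cells without overlap of the gates, uncalled (-1.05 ± 0.36). Pcdh7, a protocadherin of cell contacts, read 5.83, 6.38, 5.72 and 6.63 against 3.09, 2.88, 3.32 and 2.82 (3.11 ± 0.27, adjusted p = 0.00400). Col17a1, the transmembrane collagen of hemidesmosomes, ranged from 6.61 to 8.15 in basal and from 4.71 to 6.04 in luminal libraries (2.14 ± 0.32, adjusted p = 0.0322). Its lowest basal library, LY6D- of mouse 3, lay nearest the luminal range. Pls3, an actin-bundling plastin, rose by 2.33 ± 0.26, and Net1, an activator of the GTPase RhoA, by 2.81 ± 0.43.

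The promoter of Gja1, from 250 bases before to 50 after its start (RefSeq, GRCm38.p6, chr10:56377050-56377349, plus strand), is shown because Gja1 kept its call without any single library. Capitals mark a match to the AP-1 motif TGAGTCA that begins at base -19 from the start.
Gja1 promoter: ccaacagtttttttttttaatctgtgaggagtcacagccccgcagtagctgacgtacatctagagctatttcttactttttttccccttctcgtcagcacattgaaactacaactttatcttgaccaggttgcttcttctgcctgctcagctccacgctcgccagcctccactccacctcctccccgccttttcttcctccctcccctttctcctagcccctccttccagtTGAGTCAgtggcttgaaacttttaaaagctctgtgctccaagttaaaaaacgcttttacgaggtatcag

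The wider adhesion lists leaned the same way with few calls. Over all genes, 45.8% lay above 0 and 0.139% were called higher. Of 24 tested hemidesmosome, integrin and laminin genes, 1 was called higher and 0 lower, 19 lay above 0, and the median difference was 0.91, with 1.37 within mouse 5 and 0.26 for basal cells of mouse 3 against luminal cells of mouse 4. Itga2, the alpha-2 integrin that binds collagen, read 9.37, 10.06, 8.46 and 9.75 in basal against 7.01, 7.40, 4.41 and 4.63 in luminal libraries. Itga3, the laminin-binding alpha-3 integrin, read 10.32, 10.71, 9.33 and 10.98 against 7.11, 8.99, 6.41 and 6.81. Neither was called (adjusted p = 0.145 and 0.134, limma), although their libraries did not overlap. Of 20 desmosome and cadherin genes, 1 was called higher and 17 lay above 0, with a median of 0.72 (0.44 between mice 3 and 4). The P-cadherin gene Cdh3 differed by 2.06 ± 0.51 and desmoplakin, Dsp, by 2.30 ± 0.89, both uncalled. Tight junction genes, which seal the luminal surface, had 0 calls among 21 and a median of 0.04. Within them Cldn1 lay higher in basal cells (2.47 ± 0.82) and Cldn8 lower (-1.99 ± 0.36), without a call for either, although Cldn8 was called with the mouse as a block (-2.58 ± 0.29, adjusted p = 0.0306, limma).

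Fgfbp1 and Plaur were single calls of the growth factor and protease lists. Fgfbp1, which releases fibroblast growth factors from the matrix, read 8.99, 9.93, 9.53 and 9.94 in basal and 6.05, 7.16, 4.21 and 5.14 in luminal libraries. The gates did not overlap (3.96 ± 0.60, adjusted p = 0.0336, limma), and the luminal LY6D+ libraries lay above the LY6D- ones. Plaur, the receptor of urokinase, read 10.51, 10.81, 9.57 and 11.09 against 7.81, 8.64, 5.05 and 7.24 (3.31 ± 0.55, adjusted p = 0.0468). Dusp7, a phosphatase that switches off ERK kinases, rose by 2.18 ± 0.30, and Crim1, a membrane protein with BMP-binding repeats, by 2.65 ± 0.44. Of the 37 EGF, FGF and HGF pathway genes tested, 1 was called higher and 0 lower, and 21 lay above 0. The shares over all genes were 0.139% called higher and 45.8% above 0. The EGF receptor, Egfr, read 8.65, 9.96, 8.60 and 9.87 against 7.06, 7.16, 5.33 and 6.14 and was not called (2.85 ± 0.55, adjusted p = 0.0725). The ligand genes Epgn (2.11 ± 0.48) and Nrg1 (2.08 ± 0.82) and the HGF receptor Met (2.01 ± 0.59) lay in the same direction, uncalled. Of 28 plasminogen and metalloprotease genes 1 was called, and the uncalled members lay on both sides: the serpins Serpinb5 (3.37 ± 0.70) and Serpinb2 (3.32 ± 1.06) were higher in basal cells and Mmp7 (-4.48 ± 0.88) lower. The median of that list was -0.03 and turned to 0.01 when arrays were centred.

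Signalling and guidance genes gave single calls, where 0.139% of all genes were called higher and 45.8% lay above 0. Lgr4, a receptor of R-spondins that strengthens Wnt signalling, read 5.85, 6.18, 5.16 and 5.62 in basal and 4.61, 4.31, 4.02 and 4.59 in luminal libraries (1.32 ± 0.21, adjusted p = 0.0402, limma). It was the only call among 39 Wnt genes, and its relatives Lgr5 and Lgr6 differed by 0.04 ± 0.23 and -0.18 ± 0.23. Sema6a, a membrane-bound semaphorin, read 6.76, 8.99, 7.26 and 8.13 against 4.65, 4.32, 4.65 and 4.94 (3.15 ± 0.50, adjusted p = 0.0402). It was the only call among 44 axon guidance genes, of which 25 lay above 0. The ephrin receptor Epha2 read 8.16, 8.25, 6.98 and 8.07 against 6.47, 5.15, 5.85 and 5.02 and just missed the threshold (2.24 ± 0.39, adjusted p = 0.0554). The Notch ligand Jag1 read 7.75, 8.06, 6.43 and 8.67 against 4.68, 6.07, 3.21 and 6.03, uncalled (2.73 ± 0.74), and no Notch gene of 25 was called. No gene of 34 in the TGF-beta and BMP list was called either, and the medians of these 2 pathways were both 0.03.

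Among keratin and squamous genes Krt16 was the only call. Krt16, a keratin of activated stratified epithelium, read 9.82, 8.57, 8.62 and 9.06 in basal and 6.32, 6.95, 3.04 and 4.77 in luminal libraries (3.75 ± 0.53, adjusted p = 0.0269, limma). Of 15 basal identity genes, 1 was called, 12 lay above 0 and the median was 1.66 (1.68 within mouse 5, 0.71 between mice 3 and 4); Krt16 stands in this list and in the squamous one. Of 29 squamous genes, 19 lay above 0 and the median was 0.13. Over all genes, 45.8% lay above 0 and 0.139% were called higher. Involucrin, Ivl, a protein of the cornified envelope, read 7.20, 8.94, 8.11 and 9.21 against 5.30, 4.61, 4.63 and 3.97 and was not called (3.74 ± 0.92, adjusted p = 0.171). Krt6a read 7.62, 6.35, 5.38 and 5.84 against 4.80, 4.66, 4.93 and 4.18 (1.66 ± 0.30, adjusted p = 0.0616).

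Genes of metabolism and of RNA were also among the rises. Pdk4, a kinase that restrains the entry of pyruvate into the citric acid cycle, had the largest rise of all. It read 9.21, 10.07, 9.79 and 10.35 in basal and 8.18, 5.71, 4.15 and 3.54 in luminal libraries (4.46 ± 0.60, adjusted p = 0.0244, limma). The luminal libraries were spread over more than 4 units, with LY6D+ cells above LY6D- cells. Pdk4 was the only call among 33 glycolysis and pyruvate genes, whose median was 0.12; hexokinase 2, Hk2, read 7.57, 8.34, 5.42 and 8.75 against 5.38, 5.03, 4.84 and 4.69, uncalled. Flvcr1, a heme exporter, read 7.07, 6.45, 7.44 and 6.67 against 3.97, 3.72, 3.81 and 3.36, and its groups lay more than 2 units apart (3.19 ± 0.33, adjusted p = 0.00924). No gene of the fatty acid and cholesterol list (28 tested, median 0.37) or of the citrate and zinc list (29 tested, median -0.09) was called.

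Mir17 read 5.37, 7.23, 8.11 and 5.82 in basal and 2.94, 3.07, 3.78 and 3.14 in luminal libraries (3.40 ± 0.52, adjusted p = 0.0351, limma). The gates did not overlap, and the highest luminal library was LY6D- of mouse 4. Mir18, the neighbour in the cluster whose sequence is shown above, read 5.72, 6.71, 7.96 and 5.44 against 3.40, 3.48, 3.34 and 6.45. Its luminal LY6D- library of mouse 5 lay within the basal range, and it was not called (2.29 ± 0.70, adjusted p = 0.291). Mir20a, which has the seed of Mir17, differed by 0.55 ± 0.48, and Mir205 read 4.71, 7.89, 4.21 and 6.25 against 3.24, 4.63, 2.61 and 2.82 (2.44 ± 0.70, adjusted p = 0.260). With the mouse as a block Mir205 was called (3.34 ± 0.43, adjusted p = 0.0390, limma). Among 319 microRNA genes tested Mir17 was the only call, and their median was 0.00. Of 66 small nucleolar RNA genes, 2 were called, both higher: Snora44 (2.77 ± 0.44) and Snora33 (1.95 ± 0.30), whose libraries overlapped between gates. The share called higher over all genes was 0.139%. Utp4, a factor of ribosome assembly, read 10.09, 9.02, 9.57 and 9.20 in basal and 7.17, 7.34, 6.43 and 6.50 in luminal libraries (2.61 ± 0.38, adjusted p = 0.0322).

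The other rises had diverse roles. Plscr1, an interferon-inducible phospholipid scramblase, read 9.13, 7.86, 5.73 and 7.58 against 5.17, 4.53, 5.16 and 4.53 (2.73 ± 0.42, adjusted p = 0.0356, limma). It was the only call among 31 interferon response genes, whose median was -0.34 (-0.40 within mouse 5, 0.01 between mice 3 and 4). The interferon gene Ifnb1 stood outside this list and was called lower (-2.21). Phf10, a subunit of a chromatin remodelling complex, rose by 2.73 ± 0.46, and S100a13, a calcium-binding protein, by 2.60 ± 0.33. Smaller rises were those of Moxd1 (2.54), Pawr (2.53), Noct (2.39), Sik1 (2.13), Ces2g (1.99), Yars (1.73) and Wipi2 (1.52). Pawr promotes cell death, Noct is a clock-regulated enzyme, Sik1 is a salt-inducible kinase, Yars charges tRNA with tyrosine and Wipi2 acts in autophagy.

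**Figure D2:**
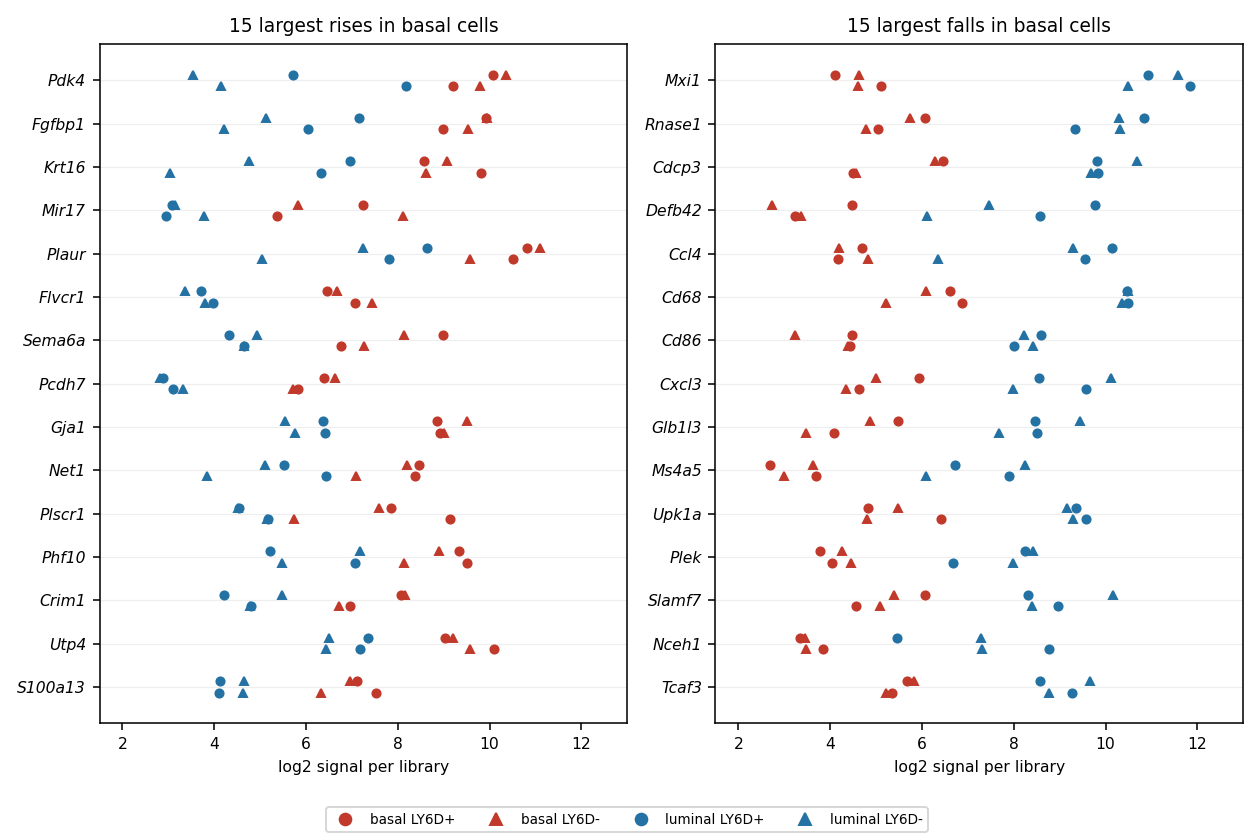
Log2 signal in each of the 8 libraries for the 15 largest rises (left) and 15 largest falls (right) among called genes whose gates do not overlap, with circles for LY6D+ and triangles for LY6D- cells, basal in red and luminal in blue, and the libraries of mouse 5 in the upper row of each gene. Luminal Pdk4 runs from 3.54 to 8.18, while luminal Cd68 stays between 10.36 and 10.50.

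The largest difference of any called gene was a fall. Mxi1, which binds MAX and opposes MYC, read 5.11, 4.11, 4.60 and 4.62 in basal and 11.84, 10.92, 10.49 and 11.58 in luminal libraries. The groups were more than 5 units apart, and the difference was -6.60 ± 0.40, which is 97.0-fold (adjusted p = 7.5e-04, limma). Mxi1 was the only call among 13 genes of the MYC and MAX network. Myc read 9.45, 10.90, 10.31 and 10.19 in basal against 9.60, 9.20, 9.50 and 9.74 in luminal libraries (0.71 ± 0.51), and its repressor relatives Mxd1 (-0.69 ± 0.36) and Mxd4 (-0.74 ± 0.33) had overlapping libraries. RefSeq gives Mxi1 3 promoters, and the one shown (GRCm38.p6, chr19:53329445-53329744, plus strand) is that with a forkhead motif, GTAAACA, in capitals at base -231.
Mxi1 promoter: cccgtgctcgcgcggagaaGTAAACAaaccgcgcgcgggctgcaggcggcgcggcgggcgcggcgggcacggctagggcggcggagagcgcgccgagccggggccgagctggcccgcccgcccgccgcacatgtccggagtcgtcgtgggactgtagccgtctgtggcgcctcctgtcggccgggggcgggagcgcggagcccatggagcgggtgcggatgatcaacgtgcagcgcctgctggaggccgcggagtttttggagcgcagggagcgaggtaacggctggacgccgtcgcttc

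Most prostate secretory genes lay lower in basal cells. Of 27 prostate secretory genes tested, 6 were called lower and 0 higher, and 3 lay above 0. The median difference was -2.33 (-1.28 within mouse 5, -2.02 between mice 3 and 4). Among them 18 had no overlap between gates, all lower. The shares over all genes were 0.278% called lower and 3.17% lower without overlap. Library means of the list ran from 5.82 to 7.15 in basal and from 8.32 to 8.73 in luminal libraries. Rnase1, a secreted ribonuclease, read 5.05, 6.06, 4.77 and 5.73 in basal and 9.32, 10.85, 10.31 and 10.29 in luminal libraries (-4.79 ± 0.64, adjusted p = 0.0244, limma). Defb42, a beta-defensin of the male tract, read 3.23, 4.48, 3.35 and 2.74 against 8.57, 9.77, 6.12 and 7.45 (-4.53 ± 0.43, adjusted p = 0.00672). Its luminal LY6D+ libraries lay above the LY6D- ones. Azgp1, a zinc-binding glycoprotein of the prostatic fluid, read 4.18, 5.39, 4.64 and 4.58 against 7.46, 8.40, 7.71 and 8.52 (-3.32 ± 0.32, adjusted p = 0.00672). Mme, the peptidase neprilysin, read 5.57, 6.43, 5.07 and 6.70 against 8.52, 10.17, 8.17 and 9.44 (-3.13 ± 0.50, adjusted p = 0.0402). The other calls of the list were the apolipoprotein Apof (-2.91 ± 0.49) and Gdpd1 (-1.86 ± 0.23).

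Other secretory genes had large differences without a call, and their basal libraries varied widely. Probasin, Pbsn, an androgen-driven secretory protein, read 9.10, 11.48, 6.94 and 10.84 in basal and 12.99, 12.79, 13.08 and 13.14 in luminal libraries (-3.41 ± 0.87, adjusted p = 0.188, limma). Msmb, a protein of seminal plasma, read 4.49, 9.23, 8.30 and 8.11 against 11.88, 11.80, 10.85 and 12.13 (-4.13 ± 0.93). The transglutaminase Tgm4 read 8.59, 9.70, 5.91 and 9.12 against 11.49, 11.80, 11.46 and 12.37 (-3.45 ± 1.10). In Pbsn and Tgm4 the basal libraries of mouse 5 lay above those of mouse 3, and in Msmb the LY6D+ library of mouse 3 was the low one. All 9 seminal vesicle secretory genes tested lay below 0, with a median of -4.01 and 0 calls. Sva read 9.63 in the basal LY6D+ library of mouse 5 but at most 2.20 in the other basal libraries, against 9.60 to 10.27 in luminal libraries. Within mouse 5 the median of the seminal vesicle list was -1.65, and between basal cells of mouse 3 and luminal cells of mouse 4 it was -5.45.

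Most genes of the secretory route lay lower too. Of 41 genes of endoplasmic reticulum folding and the secretory pathway 1 was called, Elapor1 (-2.94 ± 0.40), and 8 lay above 0, with a median of -0.72. The shares over all genes were 0.278% called lower and 45.8% above 0. Agr2, a disulfide isomerase of secretory cells, read 4.22, 7.80, 4.15 and 8.22 in basal and 10.38, 10.60, 11.16 and 11.58 in luminal libraries, uncalled (-4.84 ± 1.66) but called with the mouse as a block (-3.08 ± 0.33, adjusted p = 0.0277, limma). Outside the list, Dnajc10, a reductase of the endoplasmic reticulum, fell by 3.24 on the log2 scale, at 5.43, 6.71, 5.45 and 6.92 against 9.81, 9.15, 8.80 and 9.71. Nucb2, a secreted calcium-binding protein, read 7.51, 8.90, 7.31 and 8.77 against 10.75, 10.47, 10.33 and 10.80 (-2.47 ± 0.37, adjusted p = 0.0336, limma). Creg1 (-3.00), the lysosomal cystine transporter Ctns (-1.44) and the proton pump subunit Atp6v1c2 (-2.20) fell as well.

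Calls among luminal identity and urothelial genes were few. Tspan1, a tetraspanin, read 4.73, 4.66, 3.26 and 4.14 in basal and 7.44, 7.11, 7.41 and 8.14 in luminal libraries (-3.33 ± 0.26, adjusted p = 0.00380, limma). Upk1a, another tetraspanin and part of the plaques of the bladder lining, read 6.43, 4.83, 4.81 and 5.48 against 9.57, 9.36, 9.30 and 9.16 (-3.96 ± 0.43, adjusted p = 0.0117). None of the other 9 urothelial genes was called. Dpp4, a membrane peptidase, read 3.47, 3.53, 2.99 and 3.51 against 6.16, 5.40, 4.66 and 6.16 (-2.22 ± 0.33). Tspan1 and Dpp4 were the 2 calls among 16 luminal identity genes, whose median was -0.20. The share called lower over all genes was 0.278%. Of 23 androgen-regulated genes 2 were called, Azgp1 and Mme, and the median was -0.06. Hoxb13, a homeobox factor of the prostate, read 3.36, 3.81, 4.19 and 3.09 against 4.35, 5.08, 5.18 and 5.31 (-1.37 ± 0.28, adjusted p = 0.0870), and Gata2 read 3.94, 4.34, 3.91 and 4.15 against 5.91, 6.41, 4.86 and 6.54 (-1.85 ± 0.34, adjusted p = 0.0679). Neither was called, and neither was any other of 41 lineage transcription factors. Of these factors 25 lay above 0, and their median was 0.17. Sox4 (1.66 ± 0.56) and Foxa1 (1.56 ± 0.48) lay higher in basal cells without overlap of the gates, uncalled.

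Most of the further falls stood in no list. Cdcp3, a CUB domain protein, read 4.50, 6.45, 4.57 and 6.28 in basal and 9.85, 9.81, 9.68 and 10.68 in luminal libraries (-4.56 ± 0.55, adjusted p = 0.0182, limma). Glb1l3, related to beta-galactosidase, read 4.08, 5.47, 3.48 and 4.86 against 8.52, 8.46, 7.69 and 9.44 (-4.05 ± 0.51), and Tcaf3 read 5.35, 5.68, 5.21 and 5.82 against 9.27, 8.58, 8.77 and 9.65 (-3.55 ± 0.53). Nceh1, a cholesterol ester hydrolase, fell by 3.68 and Ms4a5 by 3.99. Smaller falls without a list were those of Slfn2 (-3.36), Mansc1 (-2.34), Ifnb1 (-2.21), Gm20016 (-2.11), Tgfbi (-1.84), Basp1 (-1.39), Kiss1 (-1.14), Dera (-1.06) and Fam25c (-1.03). Basal Ifnb1 read 2.22 to 2.63, under the lower quartile of all values (2.98). Cryab, a small heat shock protein, read 6.71, 5.42, 8.96 and 9.08 against 9.44, 9.36, 11.87 and 11.78 (-3.07 ± 0.45). In both gates its LY6D- libraries were the higher ones, and it was the only call among 15 heat shock genes. The promoter of Cdcp3 (RefSeq, GRCm38.p6, chr7:131174152-131174451, plus strand) is shown as that of a large fall with the hormone response half-site motif AGAACA in capitals at base -153.
Cdcp3 promoter: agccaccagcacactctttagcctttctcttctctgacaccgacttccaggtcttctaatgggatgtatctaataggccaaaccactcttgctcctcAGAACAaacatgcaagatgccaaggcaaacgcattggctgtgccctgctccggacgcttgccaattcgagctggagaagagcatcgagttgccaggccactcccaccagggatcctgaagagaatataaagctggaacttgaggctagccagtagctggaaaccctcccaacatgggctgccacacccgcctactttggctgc

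Genes of myeloid cells were also among the falls. Of 30 myeloid markers tested, 7 were called lower, 0 lay above 0, and the median difference was -1.42. Among them 21 had no overlap between gates, all lower. Over all genes, 0.278% were called lower and 3.17% lay lower without overlap. Library means of the list ran from 4.07 to 4.57 in basal, from 5.86 to 6.86 in luminal and from 4.38 to 5.45 in Sca1-high libraries. Cd68, a lysosomal protein of macrophages, read 6.87, 6.61, 5.22 and 6.09 in basal and 10.48, 10.48, 10.36 and 10.50 in luminal libraries (-4.26 ± 0.68, adjusted p = 0.0403, limma). Adgre1, an adhesion receptor of macrophages, read 4.65, 3.96, 4.77 and 3.68 against 8.50, 8.04, 5.60 and 8.35 (-3.36 ± 0.57, adjusted p = 0.0483). Mpeg1 (-3.14), Ms4a7 (-2.70), the mannose receptor Mrc1 (-2.54), the protease Ctss (-2.31) and the complement gene C1qb (-1.61) were the other calls. Lilrb4a read 3.34, 2.71, 3.29 and 4.17 against 9.61, 9.54, 9.05 and 9.92, a difference of -6.15 ± 1.15 that was not called (adjusted p = 0.0679) except with the mouse as a block (adjusted p = 0.0450, limma). These transcripts came from cells sorted as CD45-negative, and the part of leukocytes in the results was not tested.

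Some antigen presentation and chemokine genes fell too. Of 17 class II and co-stimulation genes 4 were called lower, with a list median of -0.44 and 2 members above 0. Among them 8 had no overlap between gates, all lower. Over all genes, 0.278% were called lower and 3.17% lay lower without overlap. Cd86, which co-stimulates T cells, read 4.44, 4.48, 4.39 and 3.24 in basal and 8.01, 8.59, 8.41 and 8.23 in luminal libraries (-4.18 ± 0.35, adjusted p = 0.00400, limma). H2-Aa read 6.14, 6.45, 6.43 and 6.02 against 8.97, 9.77, 9.32 and 10.12 (-3.29 ± 0.41), H2-Eb1 fell by 3.22 and Cd83 by 1.86. Of 42 chemokine and cytokine genes, 3 were called lower and 15 lay above 0, with 10 lower and 1 higher without overlap between gates. The calls were Ccl4 (-4.36 ± 0.57), Cxcl3 (-4.08 ± 0.65) and Xcl1 (-2.73 ± 0.39). Ccl4, which attracts monocytes and T cells, read 4.17, 4.70, 4.83 and 4.18 against 9.55, 10.13, 6.36 and 9.28. Its low luminal library was LY6D- of mouse 4, and Cxcl3, a neutrophil chemokine, was also lowest there among luminal libraries. Other falls known from leukocytes were Plek (-3.70), Slamf7 (-3.68), Ptafr (-3.30), Slc15a3 (-3.30), Mmp12 (-3.05), Rgs1 (-2.83), Clec4e (-2.72), Ccrl2 (-2.61), Lcp1 (-2.34) and Treml4 (-1.29). Lcp1, the plastin of leukocytes, thus fell where the plastin Pls3 rose.

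Of the 56 falls, 14 stood in the myeloid, lymphoid, class II or chemokine lists and 7 in the secretory or endoplasmic reticulum lists, while 28 stood in no list. Ptafr, Mmp12, Rgs1, Clec4e, Ccrl2, Lcp1 and Treml4, named above as known from leukocytes, were among those in no list. The 14 therefore counts list members and not all such genes. None of the 28 rises stood in the leukocyte lists. Of the 20135 genes tested, these lists held 30 myeloid, 22 lymphoid, 17 class II and 42 chemokine and cytokine genes. With lists this small, finding none among 28 genes says little about the rises and is no contrast to the falls. Lymphoid markers had 0 calls among 22 and a median of -0.33 (-0.59 within mouse 5, -0.12 between mice 3 and 4), and the luminal LY6D- library of mouse 5 stood out: its list mean was 5.17, against 3.77 to 4.17 in the other luminal libraries. In that library Il7r read 9.37, Gzma 8.31 and Gzmb 7.89, while the other luminal libraries reached 6.46, 4.88 and 4.03.

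Among markers of erythroid cells and platelets 1 of 6 was called, the platelet chemokine Pf4 (-2.51), and the median was -0.33 (-0.54 within mouse 5, -0.08 between mice 3 and 4). Endothelial, fibroblast, smooth muscle, neuroendocrine and glial markers had 0 calls. Endothelial markers leaned towards basal cells, with 22 of 24 above 0, against 45.8% of all genes. Their median was 0.80 (0.41 between mice 3 and 4), and the LY6D- basal libraries were the high ones. Emcn read 3.62, 5.06, 10.34 and 10.27 in basal and 3.55, 5.68, 3.95 and 5.37 in luminal libraries. The list means of LY6D- basal cells were 6.37 and 6.59, against 4.52 and 4.60 in LY6D+ basal, 4.39 to 4.62 in luminal and 5.65 to 7.16 in Sca1-high libraries. Fibroblast (20 tested, median -0.08), smooth muscle (17, -0.05) and neuroendocrine markers (12, -0.14) lay near the median of all genes, and glial markers (9, -0.43) below it. The part of these cells in the results was not tested. Cell cycle genes had 0 calls among 38 and a median of -0.09, with the cyclin Ccnd2 at 7.99, 7.25, 6.76 and 7.88 in basal against 4.95, 5.17, 5.28 and 6.74 in luminal libraries, uncalled (1.94 ± 0.36, adjusted p = 0.0679, limma). Ribosomal protein genes had a median of -0.03, which turned to 0.01 with centred arrays.

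**Figure D3:**
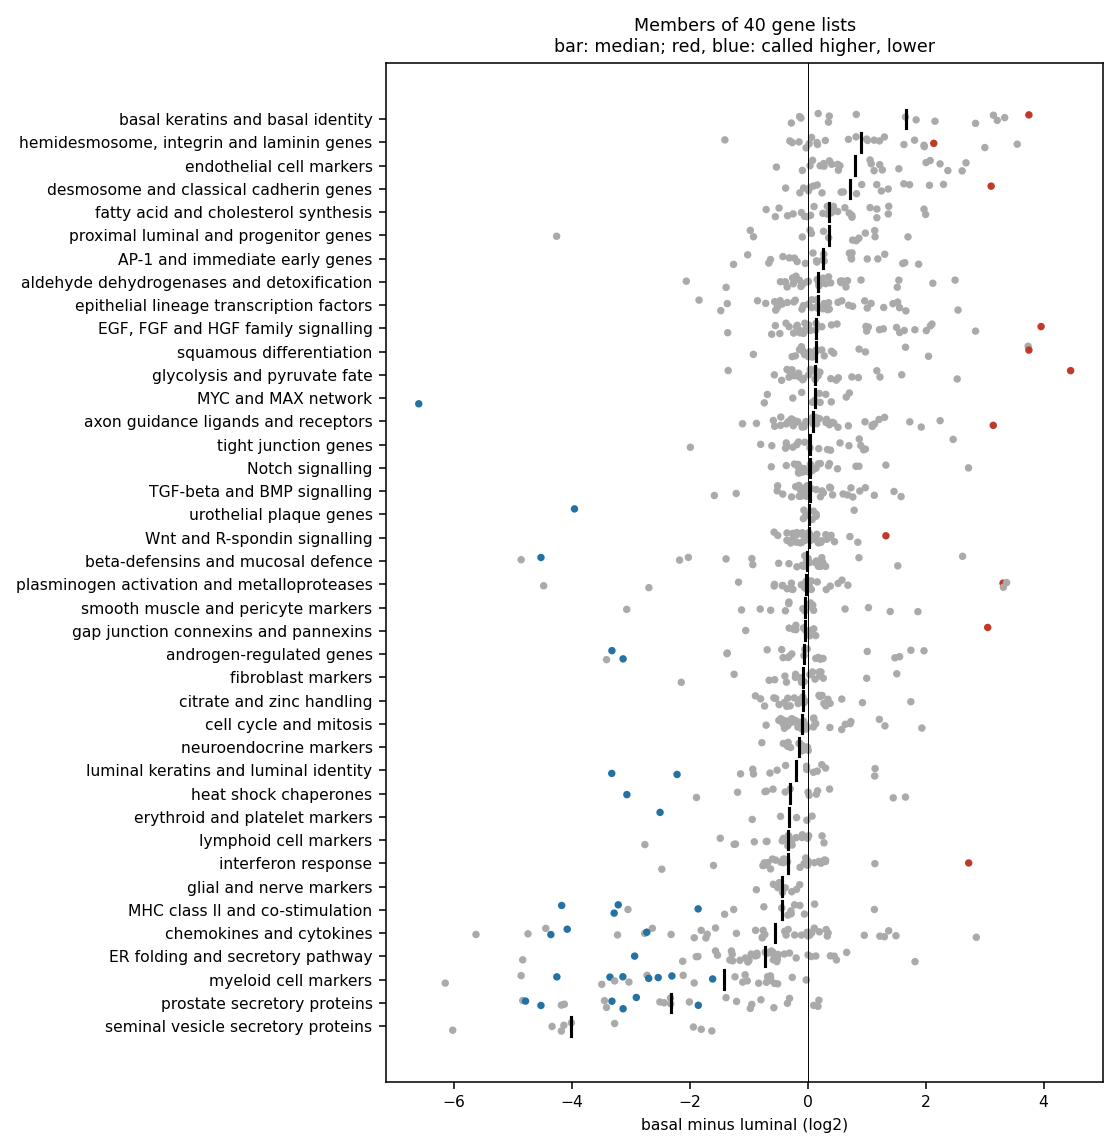
Basal minus luminal difference (log2, horizontal axis) of every tested member of the 40 gene lists, a point a gene, with a bar at the list median and called genes in red (higher) or blue (lower). Medians run from -4.01 for seminal vesicle secretory genes to 1.66 for basal identity genes, and most lists have theirs near 0.

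**Figure D4:**
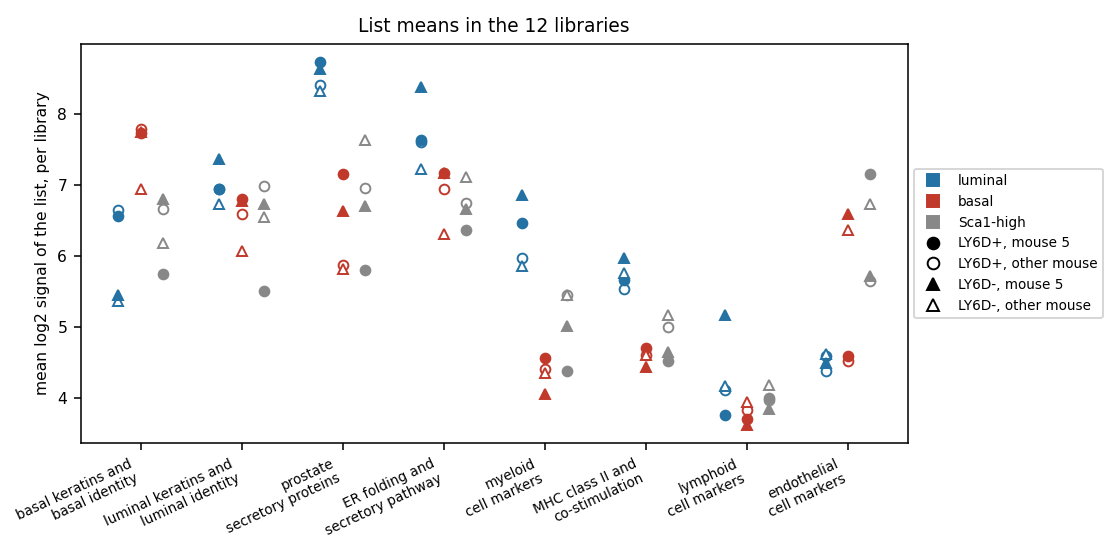
Mean log2 signal of 8 lists in each of the 12 libraries, with luminal libraries in blue, basal in red and Sca1-high in grey, circles for LY6D+ and triangles for LY6D- cells, and filled symbols for mouse 5. Luminal libraries lie above basal ones throughout for secretory, myeloid and class II genes, and LY6D- basal libraries lie above the LY6D+ basal ones for endothelial markers, at 6.37 and 6.59.

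The gate difference was then compared between LY6D+ and LY6D- cells. No gene passed for the difference between classes (0% of genes, limma), and 494 had an unadjusted p under 0.05. Of the 84 called genes, 82 had the same sign in both classes. For the 81 called genes without overlap between gates the lack of overlap fixes this, so the count does not compare the classes. Xcl1, a lymphocyte chemokine, had the smallest p: it read 10.69 and 8.75 in LY6D- luminal cells and 3.79 to 4.66 in the other 6 libraries, so that basal and luminal cells differed by 0.03 in LY6D+ and by -5.50 in LY6D- cells (class difference 5.53 ± 0.78, adjusted p = 0.326, limma). Snora33 read 9.56 and 8.47 in LY6D+ basal cells and 4.74 to 5.50 in the others (class difference 4.24 ± 0.60, adjusted p = 0.326). Me2 was higher in LY6D- luminal cells, at 5.72 and 6.51, and Mir1191 in LY6D+ basal cells, at 8.65 and 8.05. Fam136a was higher in LY6D+ luminal cells, at 5.99 and 6.80, than in the other libraries, at 2.42 to 4.18. Basal identity genes had list means of 6.65 and 6.56 in LY6D+ and of 5.37 and 5.45 in LY6D- luminal cells.

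**Figure D5:**
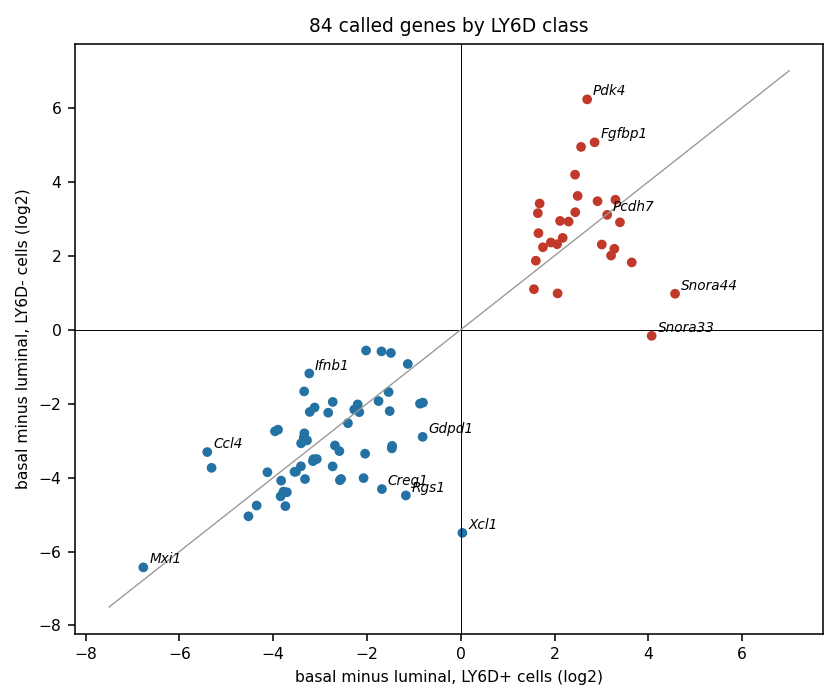
Basal minus luminal difference of the 84 called genes in LY6D- cells (vertical axis, log2) against LY6D+ cells (horizontal axis, log2), with red for genes called higher, blue for genes called lower and the line of equal difference. Xcl1, at 0.03 and -5.50, and Snora33, at 4.07 and -0.17, are the 2 genes whose sign differs between classes.

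The Sca1-high gate gave a reference position. For 72 of the 84 called genes the mean of the Sca1-high libraries lay between the luminal and basal means. Among the 56 falls it lay nearer the basal mean in 51, and among the 28 rises in 7. Gja1, with a Sca1-high mean of 8.57, and S100a13, with 7.17, were among those near the basal side, while Pcdh7, at 2.97, and Mir17, at 3.32, were at the luminal level. These values share the fit with the comparison and carry no test of their own.

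Motifs in the promoters of called genes were counted on both strands in windows from 250 bases before to 50 after the start, as a description without a test. RefSeq promoters were found for 22 of the 28 rises (25 promoters) and 46 of the 56 falls (57 promoters). The hormone response half-site AGAACA was in 15 of the 57 promoters of falls (26.3%), 2 of the 25 of rises and 15.6% of all 19048 promoters of tested genes. The AP-1 motif TGACTCA, which reads TGAGTCA on the other strand, was in 6 promoters of falls (10.5%), 2 of rises and 4.58% of all. The forkhead motif TGTTTAC, or GTAAACA on the other strand, was in 4 of falls (7.02%), 0 of rises and 2.91% of all. The E-box CACGTG, which MYC, MAX and MXI1 can bind, was in 2 of falls (3.51%), 2 of rises and 8.38% of all, and the E-box CACCTG in 9 of falls (15.8%), 6 of rises (24.0%) and 20.1% of all.

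Because mouse 5 alone gave both gates, each difference was also read within mouse 5 and between basal cells of mouse 3 and luminal cells of mouse 4. Mxi1 differed by -6.89 within mouse 5 and by -6.31 between mice 3 and 4, Gja1 by 3.23 and 2.88, Pdk4 by 5.59 and 3.33, Mpeg1 by -4.05 and -2.23, and Rnase1 by -4.67 and -4.91. With the mouse as a block, where the difference equals that within mouse 5, 100 genes were called (53 higher, 47 lower), of which 26 were among the 84. Of the 15 largest rises, Pdk4, Sema6a, Pcdh7, Crim1 and S100a13 kept their call with the block, and the other 10 did not, at adjusted p from 0.0522 for Flvcr1 to 0.187 for Phf10 (limma). Of the 15 largest falls, Mxi1, Rnase1, Cdcp3, Defb42, Ccl4, Cd86, Plek and Tcaf3 kept theirs, and the other 7 did not, at adjusted p from 0.0539 for Glb1l3 to 0.170 for Nceh1. Among further genes named above, Col17a1, Azgp1, Tspan1, Mme, H2-Aa, H2-Eb1, Mpeg1, Mrc1, Pf4, Ptafr, Ifnb1, Mansc1 and Tgfbi kept their call with the block, and every other called gene lost it. The block also called 74 genes outside the 84, among them Il1b (-5.41 ± 0.64, adjusted p = 0.0322) and H2-Ab1 (-3.08 ± 0.37, adjusted p = 0.0325).

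Fitted on the 8 basal and luminal arrays alone, without the Sca1-high libraries, 77 genes were called, 44 of them among the 84. The 33 others included 14 higher and 19 lower genes, with 5 from the basal, hemidesmosome or squamous lists and 8 from the leukocyte lists. Krt15 (adjusted p = 0.0121), Krt17 (0.0267), Egfr (0.0418), Itga2 (0.00817) and Ivl (0.0221) were called higher in that fit (limma). Lilrb4a (adjusted p = 0.00163), Lyz2 (0.0129), Il1b (0.00917), Ccl3 (0.0152), Ccl5 (0.00326) and H2-Ab1 (0.00867) were called lower. The SD of these 33 genes among the Sca1-high libraries lay between 0.61 and 3.75. The 10 genes called without any single library were Flvcr1, Pcdh7, Gja1, Mxi1, Defb42, Cd86, Upk1a, Plek, Azgp1 and Tspan1; each other call, Mir17, Pdk4, Krt16 and Rnase1 among them, ended without at least 1 library.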

How the data were processed

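Per the labels' protocols, an RNeasy kit gave the RNA of sorted cells and NuGEN's Ovation V2 system amplified it for the arrays. The deposited table holds log2 values, 1 for each probe set and array, and RMA and oligo are named, without a version, in the submitters' processing notes. They lay between 0.695 and 14.3 with array medians of 3.76 to 3.99 and were used as deposited. The build of the array design is not given in the sources used here, and probe sets were named through the platform annotation. Of 41345 probe sets 23521 had a single symbol, covering 22180 genes; the brightest probe set was kept for each gene, and the 20135 genes with at least 2 arrays above the lower quartile of the table (2.98) were tested.

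Models had a mean for each of the 6 groups over 12 arrays (limma 3.58.1, R 4.3.3, default empirical Bayes, 6 residual and 3.28 prior degrees of freedom), so that all groups share an estimate of the spread. Adjustment was by Benjamini-Hochberg with a threshold of 0.05. Members, gene lists and motifs were chosen with earlier results of these data known, and lists are described by counts and medians without a test. The 40 lists hold 1021 symbols, of which 941 were tested. The genes named are the sort genes, the 15 largest rises and 15 largest falls among called genes without overlap, called list members with up to 4 further members, other called genes by their difference, and the 5 smallest p for the class difference. Further genes outside this rule (Krt8, Krt18, Trp63, Myc, Mxd1, Mxd4, Lgr5, Lgr6, the uncalled microRNAs and genes called with 8 arrays or the block) were chosen after their values were seen.

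Libraries of the same number come from the same mouse, per the labels, which pairs them. Their deviations from the group means had a correlation of 0.407 (basal), 0.149 (Sca1-high) or 0.0220 (luminal) between LY6D+ and LY6D- cells. Between gates of mouse 5 it ran from -0.00707 to 0.414. Alternatives were mouse as a fixed or random block, 8 arrays alone, other filters, centring, quantile normalization, mean probe sets, trend and robust moderation, each library left out, mouse as the unit, and comparisons within and between mice. With the mouse as the unit, each gate and mouse gave a mean, and the gates of mouse 5 counted as independent. Promoter and microRNA sequences are from RefSeq on GRCm38.p6. The fit was tested on simulated data of 20135 genes for basal against luminal: of 100 genes changed by 2 on the log2 scale 78.0% were recovered, of 100 changed by 4 97.0%, with 16 false calls. The simulated noise was independent between arrays and held no effect of the mouse. The simulation therefore cannot show how the fit performs where libraries share a mouse. On the first principal component (25.2% of variance) basal LY6D+, basal LY6D- and luminal LY6D- libraries of mouse 5 lay apart, at 71.5, 73.1 and 32.9. The number of arrays limits the precision.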

Additional observations from a re-analysis of the deposited data

Results flagged for a closer look

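In 3 of 68 sets of 4 libraries (a named gene in a gate), the highest or lowest library was far from the others, by Dixon's critical value for 4 values. Chance flags about 1 in 20 such sets. Cdcp3 read 10.68 in luminal LY6D- cells of mouse 5, against 9.68 to 9.85 in the other luminal libraries. Cd86 read 3.24 in basal LY6D- cells of mouse 5, against 4.39 to 4.48 in the other basal libraries. Ly6d read 4.86 in basal LY6D- cells of mouse 3, against 5.93 to 6.03 in the others, of which 1 is also labelled LY6D-.

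Among probe sets without a single gene symbol, which the comparisons did not use, 3 were called between basal and luminal cells (limma, Benjamini-Hochberg adjusted), and all 3 were higher in basal cells. Probe set 17318083 had a mean of 12.02 in basal and 8.11 in luminal libraries (3.92 ± 0.18, adjusted p = 2.3e-04). Probe sets 17549490 and 17549638 had identical values in every library, with means of 6.66 and 2.63 (4.02 ± 0.33, adjusted p = 0.00820), and count as a single signal. None of them is listed in the annotation used here, so they are given by number only.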

How the results depend on the processing

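The count of 84 called genes depended on the libraries and on the treatment of the mouse. It was 31 (10 higher, 21 lower) with arrays centred on their medians, 32 with the mouse as the unit, 2 within mouse 5, 16 for basal cells of mouse 3 against luminal cells of mouse 4, and 0 without the 3 libraries of mouse 5 that lay apart on the first component, where 1385 genes had an unadjusted p under 0.05 (limma). Leaving out a library in turn gave between 15 and 255 calls: 15 without basal LY6D+ mouse 3, 21 without basal LY6D- mouse 5, 23 and 47 without luminal LY6D+ mouse 5 and mouse 4, 41 without basal LY6D+ mouse 5, 187 (138 higher) without basal LY6D- mouse 3, and 255 (227 lower) without luminal LY6D- mouse 4. The cause was not tested. With the mouse as a fixed replicate block, whose difference is that of mouse 5, 100 genes were called and with a random block 99, of which 26 and 82 were among the 84; the calls of named genes that the block changed are given with the results, and it changed no other call of the 84 or of the sort genes. The remaining settings gave 68 to 99 calls, except 65 without luminal LY6D- mouse 5. The class difference had 0 calls in the fits with all libraries and between 0 and 11 when a library was left out. No called gene changed sign under any setting: 1229 gene results kept their side of the threshold, 968 lost it and 0 reversed. For the 81 called genes without overlap between gates, leaving out libraries or grouping them by mouse could not change the sign. The lack of reversals is therefore no check of those genes. Medians of the plasminogen, defensin, smooth muscle, keratin, serpin and ribosomal lists changed sign with centring or quantile normalization, all within 0.06 of 0. With 2 mice a gate and mouse 5 alone in both, the gate and the mouse cannot be fully told apart.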
